A study of Mus musculus with 8 samples.

Results

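Integrins and other cell-matrix receptors were described in mesenchymal stromal cells (MSCs) of mouse pancreas (pMSCs) and of inguinal white adipose tissue (iwatMSCs). The set was taken as a list of gene symbols and held 33 of the 54116 genes of the table, namely 26 integrin genes (18 α and 8 β chains), the 2 discoidin domain receptor genes, the 4 syndecan genes and Cd44. The rule used symbols and no measured value, but the set was drawn up when earlier results of these data were known. RNA was sequenced from 4 pMSC and 4 iwatMSC libraries, and the series asked how stromal cells of the pancreas differ from those of a subcutaneous fat depot. Both groups came from the same untreated male C57BL/6J mice, 8 weeks old and on a standard diet. Cells were sorted as negative for the endothelial protein CD31 and the leukocyte protein CD45 and positive for the progenitor protein SCA1, were pooled from 3 to 5 mice and were expanded for 4 days in culture. No source states if each of the 4 libraries of a tissue had its own pool of mice, and p-values therefore cover the spread among these libraries alone, which may be technical. Values are FPKM, fragment numbers scaled for transcript length and library size, summed over the transcripts of a gene.

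Integrins are membrane receptors made of one α and one β chain, and the pair decides which matrix protein is bound. Their short cytoplasmic tails are joined to the actin cytoskeleton through talin and kindlin, and outside signals and cell tension pass through the same complexes. Discoidin receptors are tyrosine kinases that collagen switches on, syndecans carry heparan sulfate chains that hold matrix proteins and growth factors, and CD44 binds hyaluronan. Fibroblast-like cells use these receptors to attach to, pull on and remodel their matrix.

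Of the 33 genes, 23 averaged 1 FPKM or more over the 8 libraries and were tested by limma, with p-values adjusted by the Benjamini-Hochberg method over all 13345 genes tested. Of these 23, 12 passed an adjusted p of 0.05 (52.2%), where 19.4% of all tested genes did. In pMSCs 10 were higher and 2 lower, beside 9.02% and 10.4% of all tested genes. The median log2 fold change of the 23 genes was 0.25 and that of all tested genes -0.033. Itga1, Itga3, Itga7 and Itga11 averaged 1 FPKM or more in pMSCs only and entered the test through that group, so the counts are a description and not evidence about the whole set. The libraries of the groups did not overlap in 14 of the 23 genes, where they did not overlap in 24.4% of all tested genes. All 12 genes that passed were among these 14.

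**Figure D1:**
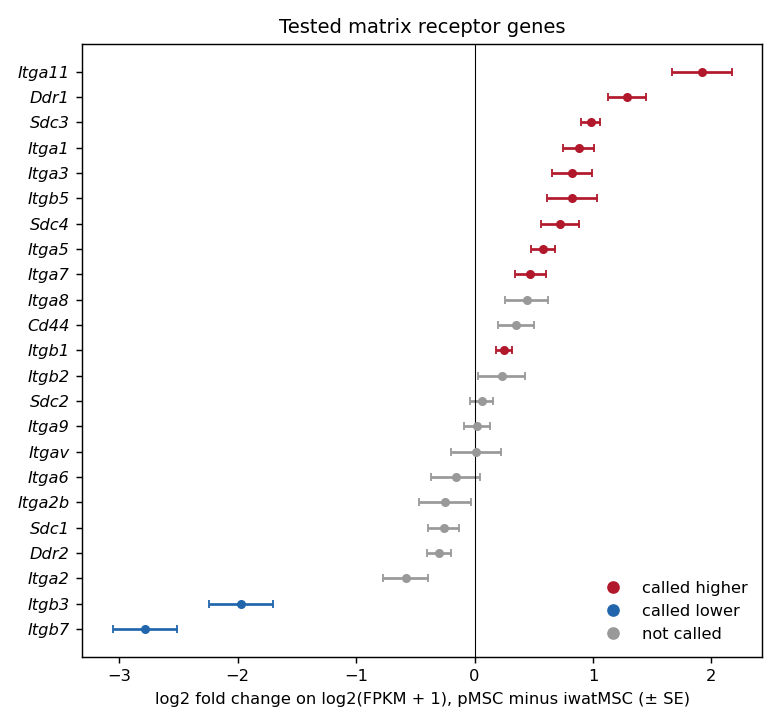
Log2 fold change (pMSC minus iwatMSC, on log2(FPKM + 1), with SE) of the 23 tested matrix receptor genes, coloured by whether they passed the adjusted test. Itga11 (1.92) and Ddr1 (1.29) lie farthest to the right, and Itgb3 (-1.97) and Itgb7 (-2.78) farthest to the left.

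Sequences of 3 members that passed the test are shown, taken from RefSeq and GENCODE, for the tested gene with the largest log2 fold change (Itgb7) and for the collagen-binding chains Itga11 and Itga1. The first is exon 14 of the full Itgb7 transcript, Itgb7-201, which the short transcript Itgb7-203 does not hold. Exon 14 lies at chr15:102216472-102216632 on the minus strand of GRCm38 and has 161 bases. It codes for the membrane-spanning segment and the start of the cytoplasmic tail of the β7 chain. Itgb7-203 has 2 exons and 455 bases, between 102215995 and 102217073, and lacks most other exons of Itgb7-201 too. Itgb7-201 has 15 exons and extends to 102231944.
Itgb7 exon 14: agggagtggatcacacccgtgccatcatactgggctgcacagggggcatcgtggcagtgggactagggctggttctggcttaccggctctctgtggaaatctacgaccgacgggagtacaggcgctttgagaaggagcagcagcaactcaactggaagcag

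The next 3 are promoter windows of RefSeq on GRCm38.p6, from 250 bases before to 50 bases after the start, of the called β chain lower in pMSCs with the largest change and of 2 collagen-binding α chains higher in pMSCs. The capitals mark the ETS letters ACTTCC, or GGAAGT on the other strand. These letters were picked after the windows had been read, because they occur in all 3, so their presence here is not a finding. The windows are chr9:62677605-62677904 (plus strand) for Itga11, chr13:115101915-115102214 (minus strand) for Itga1 and chr15:102231886-102232185 (minus strand) for Itgb7.
Itga11: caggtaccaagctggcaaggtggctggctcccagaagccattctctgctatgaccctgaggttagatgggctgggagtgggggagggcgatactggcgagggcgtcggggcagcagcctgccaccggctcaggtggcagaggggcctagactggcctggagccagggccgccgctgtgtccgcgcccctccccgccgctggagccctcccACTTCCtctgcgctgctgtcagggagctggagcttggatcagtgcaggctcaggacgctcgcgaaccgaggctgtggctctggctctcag
Itga1: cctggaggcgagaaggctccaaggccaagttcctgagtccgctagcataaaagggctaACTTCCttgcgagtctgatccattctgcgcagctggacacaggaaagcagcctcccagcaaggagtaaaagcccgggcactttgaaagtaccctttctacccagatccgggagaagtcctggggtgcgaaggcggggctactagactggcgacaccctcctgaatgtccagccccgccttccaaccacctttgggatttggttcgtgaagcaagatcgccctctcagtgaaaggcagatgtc
Itgb7: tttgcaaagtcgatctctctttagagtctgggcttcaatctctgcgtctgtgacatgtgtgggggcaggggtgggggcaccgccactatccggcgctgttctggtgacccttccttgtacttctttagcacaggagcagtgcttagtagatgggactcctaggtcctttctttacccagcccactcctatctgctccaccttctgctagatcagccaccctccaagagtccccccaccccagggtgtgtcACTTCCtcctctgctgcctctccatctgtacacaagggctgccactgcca

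The letters occur once in each of these windows and in 7 of the 29 windows of the 24 members that the promoter table holds, while 23.8% of all 32851 windows hold them on either strand. The 7 windows belong to genes that were higher (Itga1, Itga11), lower (Itgb7) and neither. A GC box, GGGCGG or CCGCCC, was in 16 of the 29 windows, beside 35.7% of all windows. Its carriers were Itga3, Itga5, Itgb1, Itgb5, Ddr1, Sdc3 and Sdc4, all higher in pMSCs, and also Cd44, Itga2, Itgav and Sdc1, which did not pass the test. Itga4 and Itgam, below the filter, carried it too. In all, 6 motifs were searched on both strands. A RUNX core (TGTGGT or ACCACA) was in 4 windows (16.8% of all), an AP-1 site (TGANTCA) in 4 (7.81%) and a TEAD site (GGAATG or CATTCC) in 2 (14.7%). The SMAD palindrome GTCTAGAC was in 0 member windows and in 0.213% of all. Such matches describe letters only.

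**Figure D2:**
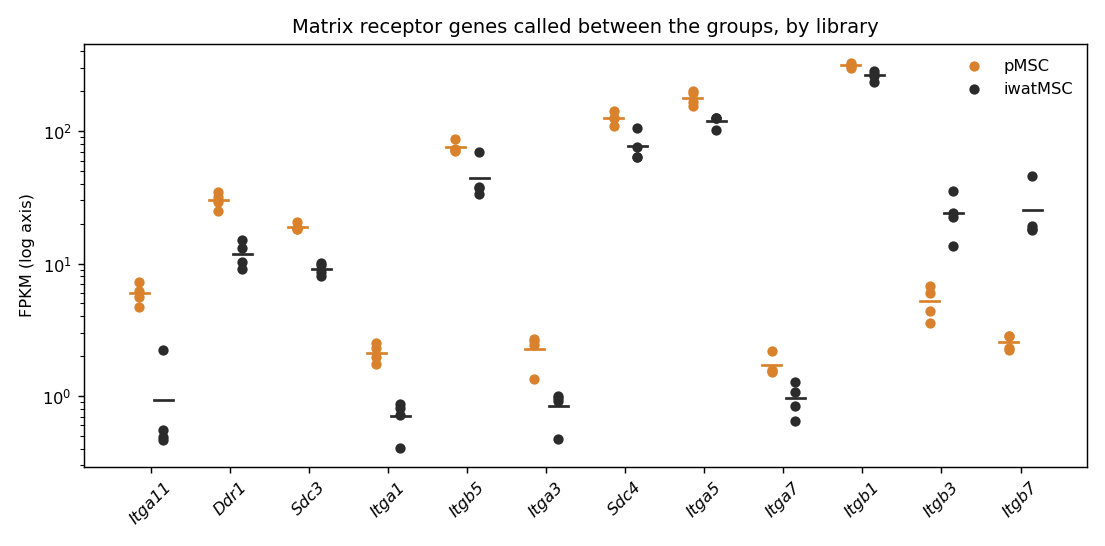
FPKM (log axis) of the 12 genes that passed the test, with each library as a point and the group mean as a line. Itgb1 is the most abundant, at 300 to 326 FPKM in pMSCs, and for Itgb7 all iwatMSC points (17.8 to 46.2) lie far above the pMSC points (2.21 to 2.84).

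The collagen receptors were compared first. Of the 4 collagen-binding α chains, all of which pair with β1, Itga11 and Itga1 were higher in pMSCs and Itga2 and Itga10 did not pass or enter the test. Itga11 (ENSMUSG00000032243, chromosome 9, 62677826 to 62783982), whose chain binds fibrillar collagen and is known from fibroblasts, was at 6.22, 5.6, 7.3 and 4.67 FPKM in pMSC replicates 1 to 4 and at 2.22, 0.492, 0.464 and 0.555 FPKM in iwatMSC replicates 1 to 4. The groups did not overlap, and iwatMSC replicate 1 stood above the other 3 iwatMSC libraries. Its mean was 6.38-fold higher in pMSCs (log2 fold change 1.92, SE 0.25, adjusted p = 0.000794), and 11.8-fold higher without iwatMSC replicate 1.

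Itga1, whose chain prefers the network collagen of basement membranes, was at 2.5, 2.3, 1.96 and 1.75 FPKM in pMSCs and at 0.874, 0.407, 0.716 and 0.809 FPKM in iwatMSCs. Every pMSC library lay above every iwatMSC library (log2 fold change 0.88, SE 0.13, adjusted p = 0.00136). The gene Pelo lies within Itga1 on the same strand and was at 10.4 FPKM in pMSCs and at 10.9 FPKM in iwatMSCs, and the antisense gene Gm10734 was at 2.84 and 3.4 FPKM. Alignment and counting used default options, with no strand option named, so reads of overlapping genes cannot be fully told apart.

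Itga2, whose chain prefers fibrillar collagen and also binds laminin in some cells, took the opposite direction. It was at 1.99, 2.42, 2.55 and 2.97 FPKM in pMSCs and at 4.55, 6.37, 3.16 and 3.2 FPKM in iwatMSCs. The groups did not overlap, although the gap between pMSC replicate 4 and iwatMSC replicate 3 was small, and the difference missed the threshold (log2 fold change -0.58, SE 0.19, adjusted p = 0.0601). As a description, the ratio of Itga11 to Itga2 was 1.57 to 3.13 in pMSCs and 0.0773 to 0.487 in iwatMSCs. Itga10, a chain best known from cartilage, was below the filter, at 0.169 to 0.426 FPKM over all libraries. The FPKM of the 4 chains summed to 10.8 ± 0.965 in pMSCs and 6.31 ± 1.71 in iwatMSCs (SD, n = 4).

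The discoidin receptors also differed from each other. Ddr1 (ENSMUSG00000003534, chromosome 17, 35681567 to 35704621), which responds to fibrillar and basement membrane collagens and is widely expressed in epithelia, was at 34.9, 31.6, 24.9 and 29.1 FPKM in pMSCs and at 13.2, 9.11, 10.2 and 15 FPKM in iwatMSCs. It was 2.54-fold higher in pMSCs without overlap (log2 fold change 1.29, SE 0.16, adjusted p = 0.000522). Ddr2, the fibrillar collagen receptor typical of mesenchymal cells, was at 88.2, 103, 103 and 112 FPKM in pMSCs and at 128, 115, 115 and 143 FPKM in iwatMSCs.

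All 4 pMSC libraries had less Ddr2 than any iwatMSC library, but the difference was small and missed the threshold (log2 fold change -0.30, SE 0.10, adjusted p = 0.0568). Ddr2 was the more abundant of the pair in every library. Ddr1 made up 19.5 to 28.4% of their summed FPKM in pMSCs and at 7.34 to 9.52% in iwatMSCs, and the sum itself was 132 ± 7.7 and 137 ± 15.8 FPKM (SD, n = 4).

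As a sum, markers of epithelial and acinar cells were higher in pMSCs too. The summed FPKM of 11 such markers was 200, 137, 49 and 63.2 in pMSCs and 9.12, 10.7, 13.7 and 16 in iwatMSCs, and of the 8 tested markers 7 were higher in pMSCs and 1, Krt19, was lower. Among those higher, Krt8, Krt18, Cldn4, Cpa1, Ctrb1 and Pnlip were at 0.0443 FPKM or less in every iwatMSC library. They entered the test through pMSCs, so this count is a description only. Epcam, a defining marker, was at 0.459 to 1.08 FPKM in pMSCs and at most 0.0602 FPKM in iwatMSCs. Krt8, Cldn4, Cpa1, Ctrb1 and Amy2b were listed at 0 in all iwatMSC libraries, and no marker was at 0 in all 8 libraries. Without pMSC replicates 1 and 2, the libraries with the highest sums, the log2 fold change of Ddr1 was 1.14 (adjusted p = 0.0133), while the marker sums of the remaining pMSC libraries still lay above those of all iwatMSC libraries. The part of these cells in the Ddr1 difference was not tested, and in bulk RNA a change in the number of cells of a type cannot be told apart from a change in the RNA per cell.

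The laminin-binding α chains Itga3, Itga6 and Itga7 were each at 10.9 FPKM or less in all libraries. Itga3, whose chain binds laminins of epithelial basement membranes, was at 2.45, 2.62, 1.35 and 2.7 FPKM in pMSCs and at 0.477, 0.967, 0.995 and 0.912 FPKM in iwatMSCs. The groups did not overlap, with pMSC replicate 3 closest to iwatMSCs (log2 fold change 0.82, SE 0.17, adjusted p = 0.00931). Without pMSC replicates 1 and 2, the log2 fold change of Itga3 was 0.69 and the adjusted p was 0.093, in a fit with fewer libraries. The summed epithelial and acinar markers given above were also higher in pMSCs, at 200, 137, 49 and 63.2 FPKM in replicates 1 to 4. Replicate 3 was the lowest of these 4 libraries for both the marker sum and Itga3, and the order of the other replicates differed. For Ddr1 the order of the 4 libraries was that of the marker sums. The part of such cells in the Itga3 difference was not tested.

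Itga7, the laminin-binding chain typical of muscle, was at 1.52, 1.58, 1.55 and 2.2 FPKM in pMSCs and at 0.847, 0.651, 1.27 and 1.08 FPKM in iwatMSCs. It passed the test by a small margin (log2 fold change 0.47, SE 0.13, adjusted p = 0.0375), and the call was lost in 7 of the 8 fits that left out 1 library, with adjusted p from 0.0345 to 0.0891. Itga6, a laminin receptor chain that pairs with β1 or β4, was at 5.46 to 8.12 FPKM in pMSCs and at 4.6 to 10.9 FPKM in iwatMSCs and did not pass (adjusted p = 0.641). Its partner of hemidesmosomes, Itgb4, stayed below the filter, at 0.426 to 0.794 FPKM in pMSCs and at 0.111 to 0.321 FPKM in iwatMSCs. The FPKM of Itga3, Itga6 and Itga7 summed to 8.97 to 13 in pMSCs and 5.93 to 12.9 in iwatMSCs.

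Receptors of fibronectin, vitronectin and other proteins with an RGD motif held the most abundant chains. Itga5, which with β1 forms the classical fibronectin receptor, was at 193, 202, 156 and 166 FPKM in pMSCs and at 102, 125, 126 and 126 FPKM in iwatMSCs. It was 1.5-fold higher in pMSCs without overlap (log2 fold change 0.58, SE 0.10, adjusted p = 0.00482). Itgb1, the common β chain of the collagen, laminin and fibronectin receptors, was at 315, 326, 300 and 313 FPKM in pMSCs and at 237, 263, 270 and 285 FPKM in iwatMSCs.

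The Itgb1 groups did not overlap, but the difference was 1.19-fold (log2 fold change 0.25, SE 0.07, adjusted p = 0.0323). It missed the threshold in 6 of the 8 fits without 1 library, where adjusted p ran from 0.0312 to 0.0851. Itgav, the α chain shared by β1, β3, β5, β6 and β8, did not pass (log2 fold change 0.01, SE 0.21, adjusted p = 0.988), at 22, 26.1, 20.4 and 26.4 FPKM in pMSCs and at 38.6, 18.1, 19.7 and 21.8 FPKM in iwatMSCs. The iwatMSC range enclosed the pMSC range, with iwatMSC replicate 1 at the top.

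The β chains that pair with αv moved apart. Itgb3 (ENSMUSG00000020689, chromosome 11, 104608000 to 104670476), the β chain of the vitronectin receptor, was at 4.41, 6.78, 3.59 and 6.02 FPKM in pMSCs and at 13.7, 35.6, 22.4 and 24.2 FPKM in iwatMSCs. Every iwatMSC library lay above every pMSC library, and the mean was 4.61-fold higher in iwatMSCs (adjusted p = 0.000954, log2 fold change -1.97, SE 0.27). Endothelial markers summed to 5.06 to 6.61 FPKM in pMSCs and 9.73 to 12.7 FPKM in iwatMSCs. Of the 2 tested, Tek was lower in pMSCs (adjusted p = 0.000765) and Egfl7 did not pass. Below the filter, Pecam1, which encodes CD31, was at 0.482 FPKM or less in all libraries, and its groups overlapped. The means of Cdh5, Kdr and Vwf were 0.112, 0.477 and 0.0519 FPKM in pMSCs. They were 0.84, 1 and 0.281 FPKM in iwatMSCs, each without overlap. Emcn was listed at 0 in all libraries and Cldn5 reached 0.0441 FPKM in both groups. The part of endothelial cells in the Itgb3 difference was not tested. Itgb5, whose chain binds vitronectin with αv and is also known from fat progenitors, was at 70.9, 87.4, 73.1 and 72.3 FPKM in pMSCs and at 69.7, 33.3, 37.7 and 37.1 FPKM in iwatMSCs.

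Itgb5 was higher in pMSCs (log2 fold change 0.82, SE 0.21, adjusted p = 0.0233), although iwatMSC replicate 1 lay only just below the lowest pMSC library. The call was lost without pMSC replicate 2 or without iwatMSC replicate 2, 3 or 4, with adjusted p from 0.000118 to 0.0658 over the 8 fits without 1 library. Side by side, the ratio of Itgb3 to Itgb5 was 0.0622, 0.0776, 0.0492 and 0.0833 in pMSCs and 0.196, 1.07, 0.594 and 0.651 in iwatMSCs. Itgb5 exceeded Itgb3 in 7 of the 8 libraries by this measure, and iwatMSC replicate 2 was the exception.

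Of the other αv partners, Itgb8, a receptor that activates latent TGF-β, averaged 0.571 FPKM and was below the filter. It was at 1.02, 0.874, 1.14 and 0.876 FPKM in pMSCs and at 0.196, 0.0743, 0.179 and 0.215 FPKM in iwatMSCs, without overlap. In the fit with no filter it was higher in pMSCs (log2 fold change 0.76, SE 0.07, adjusted p = 0.000481). Itgb6, an epithelial chain, was at 0.026 to 0.189 FPKM over all libraries.

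Itga8, which with β1 binds nephronectin and is known from smooth muscle and stellate-like cells, was at 2.08, 1.68, 1.49 and 1.54 FPKM in pMSCs and at 0.704, 0.504, 1.31 and 1.58 FPKM in iwatMSCs. The groups overlapped and the test was not passed (log2 fold change 0.44, SE 0.18, adjusted p = 0.119). Itga2b, the platelet chain that pairs with β3, was at 0.913 to 1.71 FPKM in pMSCs and at 1.15 to 3.38 FPKM in iwatMSCs (adjusted p = 0.48). Itga9, a tenascin and osteopontin receptor chain, was at 4.07 to 5.53 FPKM in pMSCs and at 4 to 5.49 FPKM in iwatMSCs (adjusted p = 0.92).

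As a sum, markers of smooth muscle cells and pericytes were also higher in pMSCs. The summed FPKM of 8 such markers, led by Acta2 and Tagln, was 1196, 1262, 681 and 582 in pMSCs and 171, 141, 384 and 347 in iwatMSCs, and 4 of the 6 tested markers were higher and 0 lower. Cnn1 (adjusted p = 0.0532) and Notch3 (adjusted p = 0.719) did not pass. Rgs5, below the filter, was at 0.0992 to 0.145 FPKM in pMSCs and at 0.0914 to 0.12 FPKM in iwatMSCs. The paper used Acta2 as a fibrogenesis marker in its stromal cells. The part of smooth muscle cells and pericytes in the differences of Itga1, Itga5, Itga7 and Itga11 was not tested. Mesothelial markers, of which 4 of 5 tested were higher and Krt19 was lower, summed to 21.5 to 39.9 FPKM in pMSCs and at 5.76 to 14.7 FPKM in iwatMSCs. Of the higher ones, Upk3b, Lrrn4 and Wt1 were listed at 0 in all iwatMSC libraries and Upk1b reached 0.152 FPKM there. They entered the test through pMSCs, so this count is a description only. Stromal markers summed to 1244 to 1441 FPKM in pMSCs and at 1300 to 1919 FPKM in iwatMSCs, and of these 8 markers, Pdgfra was higher and Cd34 and Dcn were lower in pMSCs. Ly6a, which encodes SCA1, was at 73 to 114 FPKM in pMSCs and at 79.4 to 202 FPKM in iwatMSCs.

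**Figure D3:**
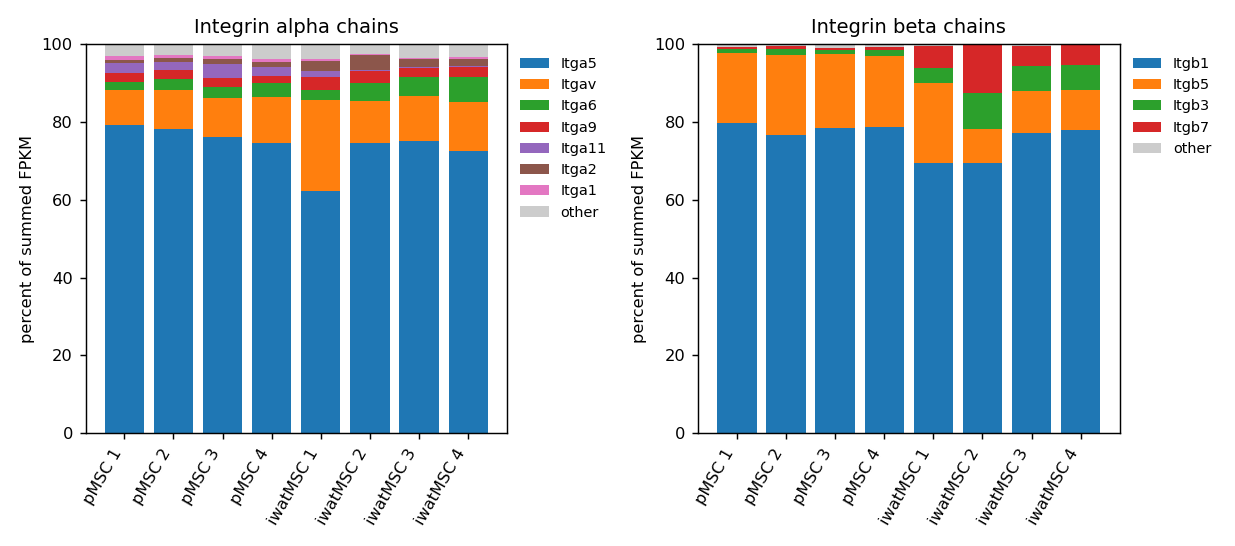
Share of the summed FPKM of all integrin α chains (left) and β chains (right) that each chain took in each library, in percent. Itga5 and Itgb1 make up most of both sums in all 8 libraries, and Itgb3 and Itgb7 form bands of 4.01 to 9.38% and 5 to 12.2% in iwatMSCs.

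Put as shares, which follow from the values above and carry no test, the α chains summed to 232 ± 23.9 FPKM in pMSCs and at 168 ± 3.5 FPKM in iwatMSCs and the β chains to 400 ± 17.9 and 359 ± 16.9 FPKM. Itga5 took 74.6 to 79.1% of the α sum in pMSCs and 62.1 to 75% in iwatMSCs, and Itgav took 9.01 to 11.8% and 10.8 to 23.4%. Among β chains, Itgb1 took 76.7 to 79.7% in pMSCs and 69.3 to 77.9% in iwatMSCs. Itgb3 and Itgb7 took 0.938 to 1.59% and 0.559 to 0.716% of the β sum in pMSCs, all below their shares in iwatMSCs. The β sum exceeded the α sum in every library.

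The largest log2 fold change of the 23 tested members was that of Itgb7 (ENSMUSG00000001281, chromosome 15, 102215995 to 102231944), the β chain that with α4 or αE guides lymphocytes to the gut and holds them in epithelia. It was at 2.21, 2.83, 2.3 and 2.84 FPKM in pMSCs and at 19.1, 46.2, 17.8 and 18.3 FPKM in iwatMSCs. All iwatMSC libraries were far above all pMSC libraries, with iwatMSC replicate 2 above the other 3. The mean was 9.94-fold higher in iwatMSCs (adjusted p = 0.000142, log2 fold change -2.78, SE 0.27), and the log2 fold change without 1 library ran from -2.90 to -2.45.

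The known α partners of β7 were nearly absent. Itga4 was at 0.0324 to 0.076 FPKM in pMSCs and at 0.102 to 0.41 FPKM in iwatMSCs, and Itgae was at 0.0401 FPKM or less in all libraries. Their sum in iwatMSCs, 0.102, 0.395, 0.398 and 0.427 FPKM in replicates 1 to 4, lay far below Itgb7 in the same libraries. With no filter, Itga4 was lower in pMSCs (log2 fold change -0.32, SE 0.08, adjusted p = 0.0371).

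Leukocyte markers were set beside Itgb7, since the gene is best known from lymphocytes. Of 12 leukocyte markers, Cd3e, Tyrobp and Cd52 were among the 5 listed at 0 in all 8 libraries, as was Adgre1, of which the table holds 2 of 5 annotated transcripts, and Ptprc, which encodes CD45, was at 0.0327 FPKM or less. The summed FPKM of the list was 6.61 to 8.71 in pMSCs and 16.4 to 19.7 in iwatMSCs, and the 2 tested markers, Csf1r and Cd68, were both lower in pMSCs. Csf1r was at 3.47 to 3.95 FPKM in pMSCs and at 8.07 to 9.54 FPKM in iwatMSCs, and Cd68 was at 1.45 to 4.03 and 6.35 to 11 FPKM. Lyz2, below the filter, took the opposite direction, at 0.815 to 1.72 and 0 to 0.285 FPKM. The part of leukocytes in the Itgb7 difference was not tested.

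The leukocyte α chains were near 0 as well. Itgam was listed at 0 in all 8 libraries, Itgax reached 0.065 FPKM, Itgad 0.141 FPKM and Itgal 0.161 FPKM, each at its highest in an iwatMSC library. The α chains Itgad, Itgae, Itgal, Itgam and Itgax together summed to at most 0.0786 FPKM in pMSCs and at 0.166 to 0.307 FPKM in iwatMSCs. With no filter, Itgal was lower in pMSCs (adjusted p = 0.0241) on a log2 fold change of -0.13. Itgb2, the common β chain of the αD, αL, αM and αX chains, was at 0.879 to 2.27 FPKM in pMSCs and at 0.813 to 1.25 FPKM in iwatMSCs and did not pass (adjusted p = 0.463).

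**Figure D4:**
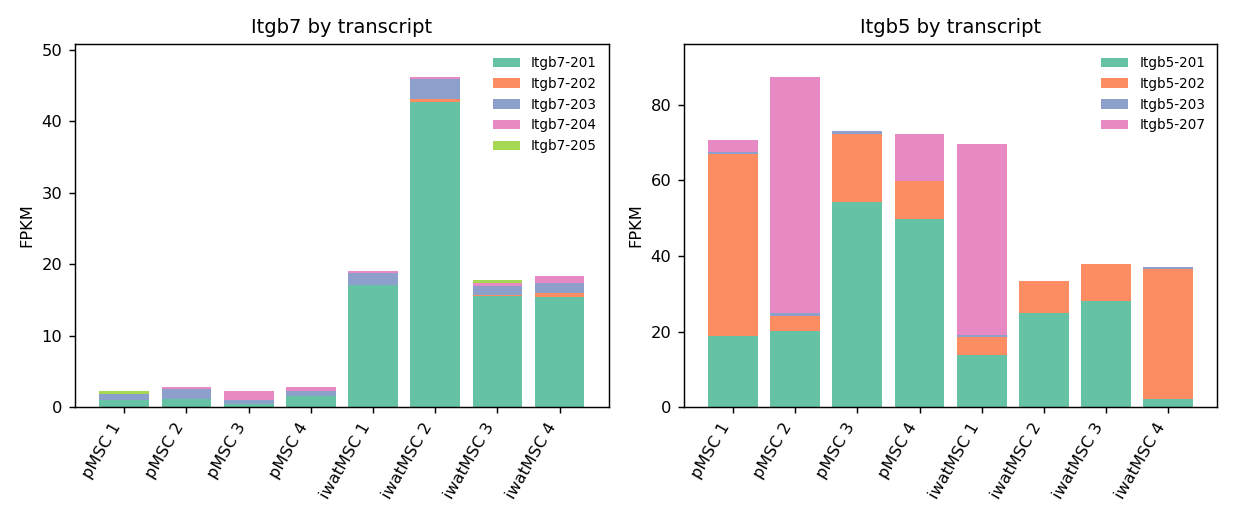
FPKM of Itgb7 (left) and Itgb5 (right) in each library, stacked by transcript, for transcripts that averaged 0.1 FPKM or more. Itgb7-201 fills most of each iwatMSC bar of Itgb7, while the transcript that fills most of an Itgb5 bar changes from library to library within a group.

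Transcripts showed which part of a gene carried its value. Of 181 transcripts of the members, 41 were tested and 7 passed, where 5.54% of all tested transcripts did. They were Itga1-201, Itga5-201, Itga11-201, Itgb1-201 and Sdc3-201, higher in pMSCs, and Itgb3-201 and Itgb7-201, lower. All 7 encode protein. For Itgb3 the single transcript carried all of the gene value.

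Itgb7-201, which has 15 exons, was at 0.944, 1.09, 0.495 and 1.54 FPKM in pMSCs and at 17.1, 42.7, 15.5 and 15.4 FPKM in iwatMSCs (adjusted p = 0.00111, log2 fold change -3.44, SE 0.34). Itgb7-203, which has 2 exons and lacks the exon printed above among others, was at 0.506 to 1.44 FPKM in pMSCs and at 1.17 to 2.77 FPKM in iwatMSCs (adjusted p = 0.25). The log2 fold change of the full transcript, 2683 bases long, exceeded that of the gene sum in size. The share of Itgb7-201 in the gene was 39.2 ± 13.6% in pMSCs and 88.4 ± 3.58% in iwatMSCs (SD, n = 4).

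That share difference had an exact permutation p of 0.029, the smallest that 4 against 4 libraries allow, and an adjusted p of 0.276 over 29 shares in 9 genes. The share of Itgb7-203, 34.1 ± 13% in pMSCs and 7.26 ± 1.23% in iwatMSCs, had the same exact p and adjusted p. So did that of Itgb1-201, 98 ± 0.488% and 94.3 ± 2.93%. With 29 shares, 0 passed after adjustment, and 3 had an unadjusted exact permutation p under 0.05.

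The split of Itgb5 among transcripts varied between libraries of the same group. The 11-exon transcript Itgb5-207, 2130 bases long, held 4.43, 71.5, 0 and 17.3% of the gene in pMSCs and 72.6, 0, 0 and 0% in iwatMSCs. The libraries where it held most, pMSC replicate 2 and iwatMSC replicate 1, were those with the highest Itgb5 of their groups. The other transcripts, Itgb5-201 and Itgb5-202, are 3056 and 3282 bases long.

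Because FPKM divides by length, the gene was also summed with each transcript weighted by its length, a choice made after seeing this split. Length-weighted Itgb5 was 223, 208, 225 and 212 in pMSCs and 166, 104, 117 and 120 in iwatMSCs, in FPKM times kilobases. The difference was about as large as in summed FPKM, with a smaller spread within the groups (log2 fold change 0.79, SE 0.13, adjusted p = 0.00251). On that scale 15 members passed, with Itga2 and Ddr2 lower (adjusted p = 0.0489 and 0.0182) and Itga8 higher (0.0247) beside all 12 given above. Itga2-201 carried all of the Itga2 value, so for Itga2 the weighting changed only the size of the values beside the added 1. Its mean was 1.74-fold higher in iwatMSCs on both scales. Itgav-202 showed a like split, at 7.82 FPKM in pMSC replicate 2, 17.1 FPKM in iwatMSC replicate 1 and 0 in the other 6 libraries. The transcripts of Ddr1 and Cd44 also traded places between libraries of a group.

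Among the syndecans, Sdc3 and Sdc4 were higher in pMSCs, and Sdc1 and Sdc2 did not pass the test. Sdc3 (ENSMUSG00000025743, chromosome 4, 130792537 to 130826319), a syndecan with a long extracellular part that is known from nerve and muscle, was at 18.1, 18.7, 18.2 and 20.7 FPKM in pMSCs and at 8.08, 8.66, 9.71 and 10.1 FPKM in iwatMSCs. The spread within groups was small and the groups were far apart, with a 2.07-fold higher mean in pMSCs (log2 fold change 0.98, SE 0.08, adjusted p = 6.4e-05). An antisense gene, Gm26716, overlaps Sdc3 and was at 10.7 FPKM in pMSCs and at 4.78 FPKM in iwatMSCs, and the reads of the pair cannot be told apart without strand.

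Sdc4, which joins integrins in focal adhesions and binds fibronectin, was at 142, 126, 126 and 110 FPKM in pMSCs and at 106, 76.5, 64 and 63.7 FPKM in iwatMSCs. It was the most abundant syndecan in every library except iwatMSC replicate 3, where Sdc1 was just above it at 64.1 FPKM. Its mean was 1.63-fold higher in pMSCs, with iwatMSC replicate 1 next to the lowest pMSC library (log2 fold change 0.72, SE 0.16, adjusted p = 0.0129). Without pMSC replicates 1 and 2, the log2 fold change of Sdc4 was 0.63 and the adjusted p was 0.108. Sdc1, best known from epithelia and plasma cells, was at 54.8, 52.1, 64.2 and 59.6 FPKM in pMSCs and at 91.8, 61.1, 64.1 and 62.6 FPKM in iwatMSCs.

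The Sdc1 ranges overlapped (log2 fold change -0.26, SE 0.13, adjusted p = 0.217). Sdc2, the syndecan of mesenchymal cells, was at 44.4, 40.5, 52.9 and 40.3 FPKM in pMSCs and at 39.8, 39.8, 44.4 and 46.2 FPKM in iwatMSCs, with full overlap (log2 fold change 0.06, SE 0.10, adjusted p = 0.738). As a share of the syndecan sum, Sdc4 was 47.7 to 54.8% in pMSCs and 34.9 to 43.2% in iwatMSCs, and Sdc1 was 21.1 to 25.9% and 32.8 to 37.3%.

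Cd44, the hyaluronan receptor, was at 134, 163, 119 and 122 FPKM in pMSCs and at 89.7, 87.6, 122 and 125 FPKM in iwatMSCs. The iwatMSC libraries fell into a lower and a higher pair, the latter within the pMSC range, and the difference did not pass (log2 fold change 0.35, SE 0.15, adjusted p = 0.137). The transcript Cd44-206, 1305 bases long, was at 5.49 and 2.19 FPKM in the lower pair and at 33 and 29.9 FPKM in the higher. Weighted by length, Cd44 was 405, 494, 354 and 356 in pMSCs and 318, 297, 348 and 364 in iwatMSCs. On that scale the iwatMSC pairs lay closer in proportion (adjusted p = 0.138 between the groups). Its short transcript Cd44-203, with 9 exons, was the most abundant in both groups, at 58.3 ± 20.2 and 51.5 ± 5.39 FPKM (SD, n = 4).

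Genes that act around the receptors were described from lists chosen with earlier results of these data known, and 19.4% of all tested genes is the background for each. Of 24 tested integrin activators and linkers, 7 were higher in pMSCs and 1 was lower, with a median log2 fold change of 0.21. The actin binder Nexn was at 8.1 ± 1.71 FPKM in pMSCs and at 2.73 ± 0.65 FPKM in iwatMSCs (adjusted p = 0.000585). The scaffold Pdlim7 was at 56.5 ± 9.16 and 36.3 ± 2.51 FPKM (adjusted p = 0.00573) and talin 2, Tln2, at 4.59 ± 0.771 and 2.9 ± 0.729 FPKM (adjusted p = 0.0411). Lims2, a partner of integrin-linked kinase, was the one lower, at 6.41 ± 1.2 and 13.6 ± 3.42 FPKM (adjusted p = 0.00653). Without pMSC replicate 2, 5 of this list passed instead of 8, and with an unequal-variance test 2 did.

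Of 21 tested adhesion kinases and adaptors, 1 was higher in pMSCs and 5 were lower, with a median of -0.06. The lower ones included the adaptor Nedd9, at 1.27 ± 0.254 and 3.15 ± 0.701 FPKM (log2 fold change -0.86, adjusted p = 0.0035), and the focal adhesion kinase relative Ptk2b, at 4.07 ± 0.401 and 6.18 ± 1.05 FPKM (-0.49, 0.0165). Git1 and Arhgef7, which form a complex that recruits PAK kinases, had log2 fold changes of -0.30 and -0.28. This count of 6 fell to 3 after rescaling to TPM or by median of ratios and when pMSC replicate 1, 2 or 3 or one of iwatMSC replicates 2 and 4 was left out, and to 2 without iwatMSC replicate 3.

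Of 15 integrin partners in the membrane, 3 were higher and 1 was lower in pMSCs (median 0.18), and the count of 4 fell to 1 with an unequal-variance test and to 2 without pMSC replicates 1 and 2. The tetraspanin Cd151, which binds laminin receptors, was at 145 ± 11.6 FPKM in pMSCs and at 81.2 ± 22.4 FPKM in iwatMSCs (adjusted p = 0.0084). The tetraspanins Cd82 and Tspan4 were higher too (log2 fold changes 0.85 and 0.46), while caveolin 1, Cav1, was lower (-1.33, adjusted p = 0.00186).

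Of 15 tested genes of other matrix receptors, 6 were higher and 1 was lower (median 0.15). Bcam, a laminin receptor of the immunoglobulin family, was at 7.52 ± 0.775 FPKM in pMSCs and at 1.37 ± 0.443 FPKM in iwatMSCs (adjusted p = 2.59e-05). The pericyte proteoglycan Cspg4, also a member of the smooth muscle and pericyte markers, was at 6.06 ± 1.52 and 1.02 ± 0.161 FPKM and the glypican Gpc3 at 10.4 ± 0.729 and 2.66 ± 0.74 FPKM (adjusted p = 6.13e-05 and 3.94e-05). Cd36, a receptor of thrombospondin and fatty acids, was at 0.426 ± 0.21 and 3.5 ± 0.803 FPKM (adjusted p = 0.000102).

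The ligands were described last. Of 24 tested collagen and fibronectin ligands, 9 were higher and 4 lower in pMSCs (median 0.32). This list also holds other matrix proteins, such as Thbs1 and Emilin1. In it Fn1 (adjusted p = 0.327), Col1a1 (0.0532) and Col1a2 (0.912) did not pass, and Col6a1 and Col6a2 were lower. Of 10 tested laminin ligands, 4 were higher and 1 was lower (median 0.44). Nid2 (log2 fold change 1.56, adjusted p = 0.00165), Lamb1 (0.82, 0.000538) and Lama2 (0.66, 0.0441) were higher. Emilin1, an elastic fibre protein, and Col3a1 were higher (1.12 and 1.24), as was Thbs1, at 550 ± 126 and 271 ± 31.7 FPKM, and Thbs2 was lower (-3.75). The Col3a1 groups overlapped, with iwatMSC replicate 1 at 267 FPKM inside the pMSC range of 214 to 349 FPKM (adjusted p = 0.0427). Nid2, Lama2 and Thbs1 overlap genes on the other strand, and Col3a1 holds the miRNA gene Gm47302 on its own strand, listed at 285 and 129 FPKM. The laminin count of 5 fell to 3 without pMSC replicate 3. The collagen and fibronectin count of 13 fell to 6 when pMSC replicate 1, pMSC replicate 2 or iwatMSC replicate 4 was left out, and to 7 without pMSC replicate 4 or iwatMSC replicate 3.

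Of 20 tested syndecan partners and hyaluronan enzymes, 2 were higher and 3 lower in pMSCs (median 0.06). Prkca, the protein kinase C that syndecan 4 binds, was at 9.29 ± 1.08 FPKM in pMSCs and at 17.6 ± 1.23 FPKM in iwatMSCs (adjusted p = 0.000269), and Xylt1 and Ndst1, which start and modify heparan sulfate chains, were lower (log2 fold changes -1.06 and -0.34). Ndst1, at 22.8 ± 2.32 and 29.2 ± 1.99 FPKM, overlaps Rps14 on the other strand, which was at 486 and 576 FPKM, and the table holds 1 of its 6 annotated transcripts. Ext1, which lengthens the chains, was higher (0.54, adjusted p = 0.00258). The count of 5 was 8 without iwatMSC replicate 1 and 3 when pMSC replicate 1 or one of iwatMSC replicates 2 and 4 was left out.

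**Figure D5:**
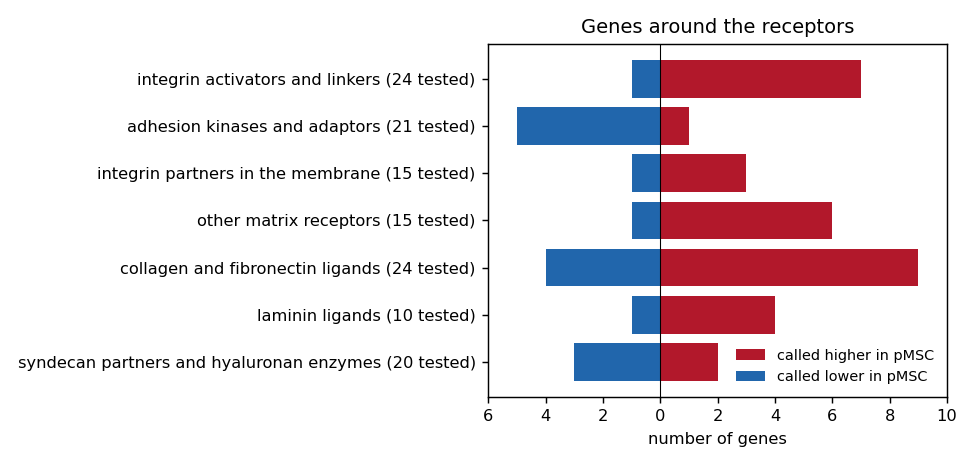
Number of tested genes in each list around the receptors that passed the test as higher (right, red) or lower (left, blue) in pMSCs. Integrin activators and linkers have 7 genes to the right and 1 to the left, and adhesion kinases and adaptors have 1 and 5.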

How the data were processed

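For each Ensembl transcript the authors deposited FPKM, computed by StringTie after alignment of BGISEQ reads to GRCm38.p6 with STAR. Both tools were run with their defaults for paired reads, and no strand option is named. The depth in reads is not given in the sources used here, so no counting error is given. The table has 136535 transcripts and 0 value columns without a sample, and 136372 transcripts (99.88%) matched GENCODE M21 on the same build by identifier. Libraries totalled 437894 to 458616 FPKM, with 13092 to 13313 genes at 1 FPKM or more, and the first principal component (59.8%) separated the groups. All annotated transcripts of the 33 members were present. Of the list genes, some rest on part of their annotated transcripts, such as Lims2 (9 of 12), Ndst1 (1 of 6), Csf1r (2 of 6), Adgre1 (2 of 5), Epcam (1 of 5) and Acta2 (1 of 2).

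FPKM were summed per gene. Genes or transcripts with a mean of 1 FPKM or more entered a linear model of log2(FPKM + 1) on group (limma 3.58.1, R 4.3.3, moderated with a mean-variance trend). No covariate was used, tests were two-sided, differences are pMSC minus iwatMSC, and p-values were adjusted by Benjamini-Hochberg. Fold changes on this scale understate those of low genes. For transcript shares, all 70 assignments of libraries to groups were enumerated (exact permutation test, two-sided). The tests were checked on simulated data.

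Promoter windows were searched for 6 motifs, and the ETS letters were picked after reading the printed windows. The members and lists were chosen with earlier results of these data known. Members that passed the test, and others with a mean of 20 FPKM or an unadjusted p under 0.05, were given in all libraries, the rest by range. Up to 4 genes with the largest change were named per list, except that some list genes are not reported here by name, and of transcripts those called or with the smallest exact p. Other genes and transcripts named beside these were chosen after their values were seen. Near the filter, Itga10, Itgb4 and Itgb8 lay below at means of 0.32, 0.386 and 0.571 FPKM and Itgb2, Itga7 and Itga8 above at 1.29, 1.34 and 1.36 FPKM. Alternatives were other pseudocounts, filters, scalings and tests, protein-coding transcripts only, leaving out libraries and, chosen after seeing the data, length-weighted sums.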

Additional observations from a re-analysis of the deposited data

Results flagged for a closer look

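Within the groups of 4 libraries, 102 groups were examined for a library whose gap to the next exceeded 0.83 of the range, and 12 had one. Chance gives about 1 in 20 groups. Among receptors, iwatMSC replicate 1 stood apart for Itga3 (0.477 FPKM, others 0.912 to 0.995), Itga5 (102, others 125 to 126), Itga11 (2.22, others 0.464 to 0.555), Itgb5 (69.7, others 33.3 to 37.7) and Sdc1 (91.8, others 61.1 to 64.1). Itgb7 was at 46.2 FPKM in iwatMSC replicate 2 (others 17.8 to 19.1), Itgb5 at 87.4 FPKM in pMSC replicate 2 (others 70.9 to 73.1) and Itga7 at 2.2 FPKM in pMSC replicate 4 (others 1.52 to 1.58). Among genes of the lists, iwatMSC replicate 1 stood apart for Col3a1 (267 FPKM, others 82.7 to 85.2) and Thbs1 (224, others 283 to 294), pMSC replicate 3 for Cav1 (25, others 12.6 to 13.4) and iwatMSC replicate 3 for Cspg4 (1.26, others 0.909 to 0.958). Without iwatMSC replicate 1, 10 members passed the test instead of 12, and the lost calls were those of Itga7 and Itgb1.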

How the results depend on the processing

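Itga1, Itga5, Itga11, Itgb3, Itgb7, Ddr1 and Sdc3 passed the test under each of up to 21 alternatives that kept them in the test, and no member or named list gene that passed reversed its direction. Of the 12 receptor genes called, 7 passed with an unequal-variance test and 7 of the 8 called without pMSC replicates 1 and 2 were among the 12, where Itgb2 was gained (adjusted p = 0.0361). The count of all genes called, 2589, became 1428 with the unequal-variance test and 1468 without pMSC replicates 1 and 2, and the 7 member transcripts became 4 and 2. Among all genes called, 1204 were higher and 1385 lower in pMSCs, but 1370 and 1139 after rescaling to TPM and 1356 and 1178 by median of ratios, so the larger side changed. With the unequal-variance test the list counts fell from 8 to 2 for activators and linkers, 6 to 3 for kinases and adaptors, 4 to 1 for membrane partners, 13 to 5 for collagen and fibronectin ligands, and 5 to 3 for both laminin ligands and syndecan partners, and from 7 to 6 for other matrix receptors. Leaving out 1 library gave 9 to 11 member genes, 1793 to 2840 for all genes called and 5 to 8 member transcripts. With no filter 12 members passed, 9 of them shared, with Itgb8 gained as higher and Itga4 and Itgal as lower. Itga8 was gained with protein-coding transcripts only and Ddr2 with array weights. No paired analysis was possible because the titles of the groups share no numbers and nothing links a given pancreas library with a given inguinal library. FPKM hold no read depth, so members below 1 FPKM could not be given a detection limit.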
